A study of Mus musculus with 12 samples.

Results

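Fc receptors and the genes of apoptotic cell uptake were followed in the livers of mice given esculetin, a plant coumarin, and in a macrophage line loaded with oxidized low-density lipoprotein (oxLDL). The 10 genes were taken from both count tables by matching Ensembl identifiers to symbols, and they were 10 of 55357 identifiers in each table. The 5 Fc receptor genes were Fcgr1, Fcgr2b, Fcgr3, Fcgr4 and Fcer1g. The 5 uptake genes were Mertk, Axl, Gas6, Itgav and Mfge8. Each symbol matched a single identifier.

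Fc receptors bind the constant part of antibodies, so that a macrophage can take up a particle coated with IgG. The activating receptors signal through the common gamma chain encoded by Fcer1g and the kinase Syk, and Fcgr2b carries an inhibitory motif that recruits phosphatases. Dying cells are taken up by another route, in which soluble bridging proteins such as Gas6 and Mfge8 bind exposed phosphatidylserine and are bound in turn by the receptor tyrosine kinases Axl and Mertk or by integrins that contain the alpha-v subunit.

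RNA was sequenced in 12 libraries, in 4 groups of 3. The liver libraries came from wild-type (WT) C57BL6/J male mice of 8 to 9 weeks, which received 90 mg/kg/day esculetin or its vehicle, 2.5% Tween-80, by gavage over 7 days. Vehicle and esculetin mice alike were on a control diet (10% of kcal from fat) for 4 days, followed by a high-fat diet (60%) for 3 days. The cell libraries came from WT RAW264.7 cells, a single mouse macrophage line, in which every library had received 25 µg/mL DIL-oxLDL for 24 hours, with 40 µg/mL esculetin or with the solvent DMSO. Each liver sample was a pool from a pair of mice per the study, and nothing states that the cell replicates were separate cultures, so the p-values in the cells measure only the spread between these samples, which may be technical.

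A liver library held 14659876 to 20346460 counts and a cell library 13752842 to 20001959. Levels are given as CPM, library-scaled counts with TMM factors, which serve to compare a gene between libraries, or as TPM, which also divide by exon length and serve to compare genes. Calls rest on edgeR's quasi-likelihood test, with an adjusted p under 0.05 over all tested genes. Hepatocyte markers summed to between 107899 and 135515 CPM in the liver and to at most 1.02 CPM in the cells, where 3 of 8 (Apoa1, Ttr and Serpina1c) were at 0. The 10 macrophage markers were all detected in the cells, but Timd4, a Kupffer cell marker, was at 0 there, and Clec4f, Vsig4 and Cd163 had at most 3 counts in any cell library.

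In RAW264.7 cells, Fcgr3 and Fcgr4, which encode low- and intermediate-affinity activating IgG receptors, rose with esculetin, and smaller rises were seen in Fcgr2b and Fcer1g. Of the 5 Fc receptor genes, 4 were called and all 4 were higher. Of all tested genes 57.7% were called and 28.7% were called higher, so a call in these cells was common. The plot of member levels in the cells shows each library.

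**Figure D1:**
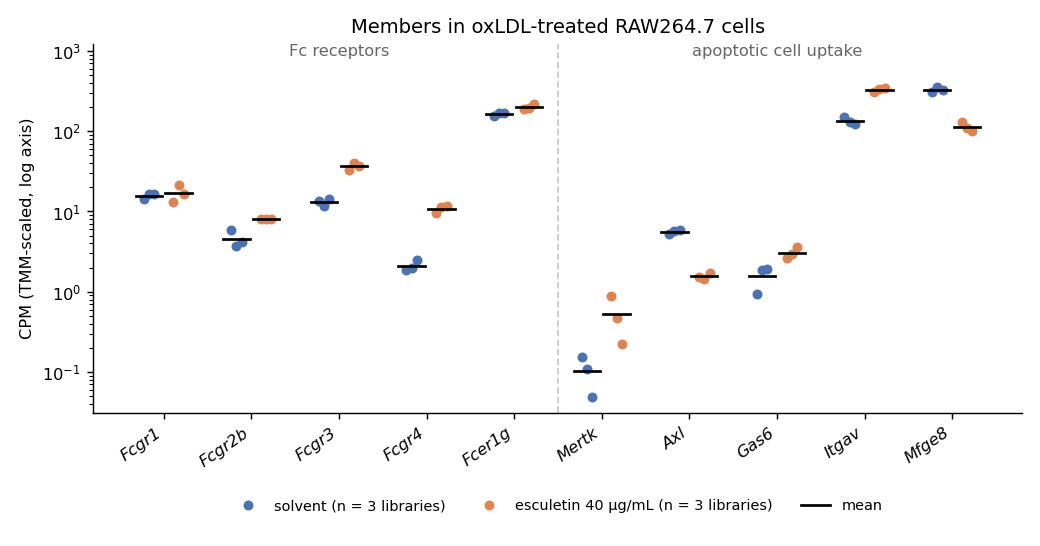
CPM of the 10 genes on a log axis in the 6 RAW264.7 libraries, with points for libraries and black bars for group means. The groups stand apart in 8 of the tested genes, Fcgr1 overlaps, and Mertk lies near the counting limit.

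Fcgr4 (ENSMUSG00000059089, chr1:170846466-170857330, plus strand of GRCm39) stood at 1.87, 1.99 and 2.48 CPM in solvent libraries 1 to 3 and at 9.51, 11.5 and 11.7 CPM in the esculetin libraries. All 3 treated libraries lay above all controls. These levels rested on 36 to 51 counts per solvent library and 130 to 210 counts per treated library. The rise was 5.14-fold (log2 fold change 2.36, SE 0.19, edgeR adjusted p = 2.25e-06), the largest of the called members.

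Fcgr3 (ENSMUSG00000059498, chr1:170878738-170893549, minus strand) had 13.7, 11.8 and 14.2 CPM with solvent and 33.1, 40.5 and 36.8 CPM with esculetin, again without overlap. It rose 2.78-fold (log2 fold change 1.47, SE 0.12, edgeR adjusted p = 2.95e-06). Fcgr2b (ENSMUSG00000026656, chr1:170786186-170804177, minus strand), the inhibitory receptor, had 5.96, 3.71 and 4.13 CPM with solvent and 8.12, 8.11 and 8.14 CPM with esculetin. Its treated libraries were nearly identical to each other and lay above a more scattered control group. The rise was 1.76-fold (log2 fold change 0.82, SE 0.20, edgeR adjusted p = 0.00449).

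Fcer1g (ENSMUSG00000058715, chr1:171057141-171062219, minus strand), the signalling chain shared by the activating receptors, was already abundant. Its levels were 153, 167 and 169.7 CPM with solvent and 190.0, 196 and 217 CPM with esculetin. The groups did not overlap, but the step was small at 1.23-fold (log2 fold change 0.30, SE 0.09, edgeR adjusted p = 0.0111). Fcgr1 (ENSMUSG00000015947, chr3:96190225-96201338, minus strand), the high-affinity receptor, was at 14.3, 16.5 and 16.4 CPM with solvent and at 13.3, 21.6 and 16.3 CPM with esculetin. The treated libraries spanned the control range on both sides, and Fcgr1 was not called (log2 fold change 0.12, SE 0.17, edgeR adjusted p = 0.561). Without esculetin replicate 2 its log2 fold change was -0.08.

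The promoters of Fcgr4 and Fcgr3 are shown because these were the receptor genes with the largest rises, and that of Fcgr1 because it was the receptor gene not called. Each is the stretch of 250 bases before a RefSeq start, taken from RefSeq on GRCm38.p6 and placed on GRCm39 by exact match. Capitals mark every match, on either strand, to the letters searched, which were TTNNGNAA (C/EBP), CCAAT (NF-Y), TGTGGT (RUNX), GAGGAA (PU.1), GAAA and GAAA with any 2 bases between them (interferon response element, ISRE), TTCNNNGAA (gamma-activated site, GAS) and TGANTCA (AP-1).
Fcgr4, chr1:170846245-170846494, plus strand: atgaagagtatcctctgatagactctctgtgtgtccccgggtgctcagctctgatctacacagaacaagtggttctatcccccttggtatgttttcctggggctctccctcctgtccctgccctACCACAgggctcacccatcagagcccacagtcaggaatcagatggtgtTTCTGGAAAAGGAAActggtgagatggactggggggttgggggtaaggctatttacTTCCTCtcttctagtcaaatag
Fcgr3, chr1:170886973-170887222, minus strand: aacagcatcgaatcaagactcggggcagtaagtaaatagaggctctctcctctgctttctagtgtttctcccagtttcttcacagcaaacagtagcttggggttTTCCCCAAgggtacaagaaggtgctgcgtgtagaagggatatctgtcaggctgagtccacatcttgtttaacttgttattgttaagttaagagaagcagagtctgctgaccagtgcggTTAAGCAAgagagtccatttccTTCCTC
Fcgr1, chr3:96201286-96201535, minus strand: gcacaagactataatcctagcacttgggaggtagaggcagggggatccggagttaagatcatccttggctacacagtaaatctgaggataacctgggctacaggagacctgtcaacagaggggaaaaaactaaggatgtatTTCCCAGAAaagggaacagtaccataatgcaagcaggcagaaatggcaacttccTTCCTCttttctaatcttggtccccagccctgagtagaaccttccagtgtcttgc

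The Fcgr4 window held a C/EBP match, TTCTGGAA, that overlapped an ISRE match, GAAAAGGAAA, beside RUNX and PU.1 matches. The Fcgr3 window held 2 C/EBP matches and a PU.1 match that ended at the base before the start. From another RefSeq start of Fcgr3, the same PU.1 match lies 15 to 10 bases upstream. The RefSeq start used for Fcgr3 lies 6577 bases downstream of the outermost GENCODE start of the gene. For Fcgr2b this distance is 537 bases and for Fcer1g 301 bases. The Fcgr1 window held a GAS match, TTCCCAGAA, and a PU.1 match. No match was found in the windows of Fcgr2b or Fcer1g. Of 32851 promoters of the same length, 36.8% held the C/EBP letters, 23.3% PU.1, 14.0% RUNX, 2.98% ISRE, 7.02% GAS, 33.8% CCAAT and 6.75% AP-1, and the ISRE letters were the least frequent of those searched. A match describes the letters and is not a binding site.

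Among the uptake genes in the cells, the integrin subunit Itgav rose while the bridging protein Mfge8, which binds alpha-v integrins, fell. The receptor Axl also fell, and its ligand Gas6 rose from a low level. All 4 tested uptake genes were called, 2 higher and 2 lower, against 28.7% of all tested genes called higher and 29.0% called lower. Over all 9 tested members, 8 were called and the same 8 had groups that did not overlap, against 64.1% of all tested genes with groups apart.

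Itgav (ENSMUSG00000027087, chr2:83554403-83637260, plus strand) had 149, 131 and 122 CPM with solvent and 309, 333 and 342 CPM with esculetin. The lowest treated library exceeded the highest control by a wide margin. Itgav rose 2.45-fold (log2 fold change 1.29, SE 0.09, edgeR adjusted p = 1.07e-06). Mfge8 (ENSMUSG00000030605, chr7:78783515-78798825, minus strand) moved the other way, from 307, 356 and 325 CPM with solvent to 129, 109 and 102 CPM with esculetin. It was 2.91-fold lower, with no overlap (log2 fold change -1.54, SE 0.10, edgeR adjusted p = 6.63e-07).

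Axl (ENSMUSG00000002602, chr7:25456535-25488329, minus strand), a receptor tyrosine kinase for Gas6, had 5.24, 5.75 and 5.89 CPM with solvent and 1.54, 1.43 and 1.73 CPM with esculetin. Its treated libraries held 21 to 31 counts each, all below the 101 to 121 counts of the controls. Axl was 3.57-fold lower (log2 fold change -1.84, SE 0.22, edgeR adjusted p = 3.41e-05), the largest fall among the members.

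Gas6 (ENSMUSG00000031451, chr8:13515371-13544824, minus strand), the ligand of Axl and Mertk, was read from 18, 35 and 40 counts with solvent and 36, 43 and 65 counts with esculetin. In CPM these were 0.933, 1.88 and 1.95 against 2.63, 2.93 and 3.62, so the groups stood apart, with solvent library 1 well below the other controls. The rise was 1.93-fold (log2 fold change 0.95, SE 0.32, edgeR adjusted p = 0.0232). This call was lost without solvent replicate 1 (log2 fold change 0.68, adjusted p = 0.0707), without esculetin replicate 2 (adjusted p = 0.0508) and without esculetin replicate 3 (adjusted p = 0.0716).

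Mertk (ENSMUSG00000014361, chr2:128540729-128645080, plus strand), the other receptor of Gas6, was too low in the cells to enter the test. It had 3, 2 and 1 counts with solvent and 12, 7 and 4 counts with esculetin. The scaled ratio of the group sums was 4.84, with a 95% exact interval of 1.92 to 14.5 that covers counting error only. Fitted without the filter on low counts, Mertk had an edgeR adjusted p of 0.0569.

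The promoters of Itgav, Axl and Mfge8 are shown because these uptake genes made the largest moves in opposite directions. They were taken from RefSeq, placed on GRCm39 and marked in the same way.
Itgav, chr2:83554491-83554740, plus strand: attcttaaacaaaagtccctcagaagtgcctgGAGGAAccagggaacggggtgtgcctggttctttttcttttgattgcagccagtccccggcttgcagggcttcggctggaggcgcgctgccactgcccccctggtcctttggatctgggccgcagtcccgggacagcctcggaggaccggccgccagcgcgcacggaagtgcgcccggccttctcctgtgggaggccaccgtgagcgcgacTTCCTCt
Axl, chr7:25488159-25488408, minus strand: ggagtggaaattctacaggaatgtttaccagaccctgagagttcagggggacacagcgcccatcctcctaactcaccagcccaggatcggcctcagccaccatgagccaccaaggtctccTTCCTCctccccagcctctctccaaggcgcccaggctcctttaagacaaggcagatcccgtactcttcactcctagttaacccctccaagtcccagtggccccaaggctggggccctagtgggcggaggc
Mfge8, chr7:78798809-78799058, minus strand: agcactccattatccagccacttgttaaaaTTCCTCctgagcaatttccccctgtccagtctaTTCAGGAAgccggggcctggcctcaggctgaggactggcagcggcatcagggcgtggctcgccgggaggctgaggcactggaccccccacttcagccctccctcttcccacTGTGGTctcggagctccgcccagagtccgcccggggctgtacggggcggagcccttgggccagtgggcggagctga

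Itgav held 2 PU.1 matches and 18 CpG dinucleotides, against a median of 6 over all promoters. Its RefSeq start lies 338 bases downstream of the outermost GENCODE start, so its window lies inside the gene model. For Axl this distance is 171 bases and for Gas6 289 bases. Axl held a PU.1 match and 5 CpG. Mfge8 held C/EBP, RUNX and PU.1 matches and 12 CpG. In Gas6 the only matching letters were TTCCGAAA, which fit the C/EBP pattern on both strands, and Mertk had none. PU.1 letters were found in Itgav, which rose, as well as in Axl and Mfge8, which fell. Whether any of the letters searched go with the direction of change was not tested.

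Per length, the members spanned a wide range in the cells. With solvent, Fcer1g led at 586 ± 28.7 TPM (SD, n = 3), followed by Mfge8 at 287 ± 18.5 and Itgav at 45.2 ± 4.85, each apart from the next. Fcgr1 at 18.7 ± 1.34 and Fcgr3 at 17.8 ± 1.89 overlapped. Below them came Fcgr4 at 6.86 ± 1.07, Fcgr2b at 3.27 ± 0.881, Axl at 2.55 ± 0.144, Gas6 at 1.20 ± 0.422 and Mertk at 0.0899 ± 0.0467 TPM, of which Fcgr2b and Axl overlapped.

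With esculetin, Fcer1g remained at the top, at 696 ± 48.5 TPM (SD, n = 3). Itgav at 107 ± 6.36 and Mfge8 at 95.2 ± 11.4 TPM came to overlap. Fcgr3 at 47.7 ± 5.44 and Fcgr4 at 34.2 ± 4.02 TPM now both stood above Fcgr1 at 19.7 ± 5.11 TPM, with no overlap between these neighbours. Fcgr2b reached 5.57 ± 0.0699, Gas6 2.23 ± 0.367, Axl 0.684 ± 0.0601 and Mertk 0.438 ± 0.272 TPM, and the last pair overlapped.

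**Figure D2:**
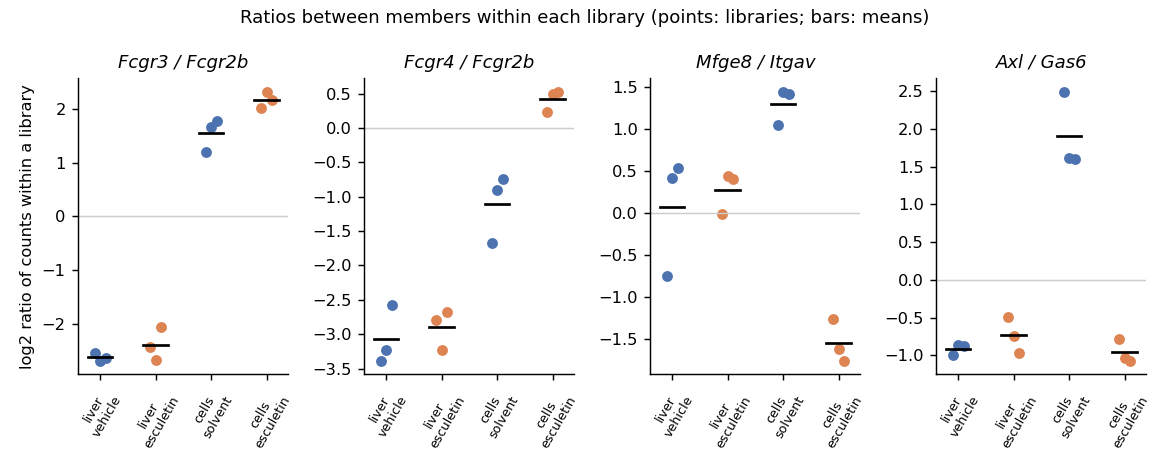
Log2 ratios of counts between pairs of members within each of the 12 libraries, with points for libraries and bars for group means. Mfge8 over Itgav and Axl over Gas6 drop from above 0 to below 0 in the esculetin-treated cells, and the liver groups overlap in all 4 panels.

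Ratios between members within a library do not depend on the scaling between libraries, and they are given as a description. Per length, Mfge8 over Itgav was 6.43 ± 0.941 (SD, n = 3) in the solvent cells and 0.899 ± 0.163 in the treated cells. Mfge8 RNA thus passed from several-fold above Itgav RNA to about its level, and these values do not describe the proteins. In the liver this ratio was 2.93 ± 1.20 with vehicle and 3.18 ± 0.530 with esculetin, between the solvent and the treated cells. Axl over Gas6 was 2.34 ± 0.889 with solvent and 0.309 ± 0.0350 with esculetin. In the liver the latter ratio was 0.319 ± 0.0147 with vehicle and 0.364 ± 0.0599 with esculetin, so the means of the treated cells and the liver groups were close. By library, the ratio was 0.349, 0.293 and 0.286 in the treated cells and 0.302 to 0.427 over the 6 liver libraries, with 2 treated cell libraries below the lowest liver library, while the solvent cells lay at 1.81 or above.

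The balance of activating receptors to inhibitory Fcgr2b moved differently for each receptor. In the cells the TPM ratio of Fcgr4 to Fcgr2b went from 2.21 ± 0.690 (SD, n = 3) to 6.14 ± 0.674, and that of Fcgr3 to Fcgr2b from 5.62 ± 1.13 to 8.57 ± 0.871, in both cases without overlap. The ratio of Fcgr1 to Fcgr2b was 6.05 ± 1.80 with solvent and 3.53 ± 0.870 with esculetin, and its groups overlapped. That of Fcer1g to Fcgr2b was 188 ± 51.7 with solvent and 125 ± 8.66 with esculetin, also overlapping. In the liver, where Fcgr2b is known to be rich in sinusoidal endothelium, the ratio of Fcgr4 to Fcgr2b was 0.565 ± 0.175 with vehicle and 0.622 ± 0.119 with esculetin, and that of Fcgr3 to Fcgr2b was 0.307 ± 0.0149 and 0.365 ± 0.0795.

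In the liver none of the 10 members was called by edgeR, where 0.0859% of all tested genes were called. DESeq2 and limma-voom also called 0 of the 10. At an unadjusted p under 0.05, 1 member, Gas6, passed in edgeR, where 8.37% of all tested genes did so. The groups overlapped in all 10 members, whereas 14.5% of all tested genes had groups apart. In whole liver, fewer cells of a type and less RNA per cell cannot be told apart, and this holds for every liver value here.

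**Figure D3:**
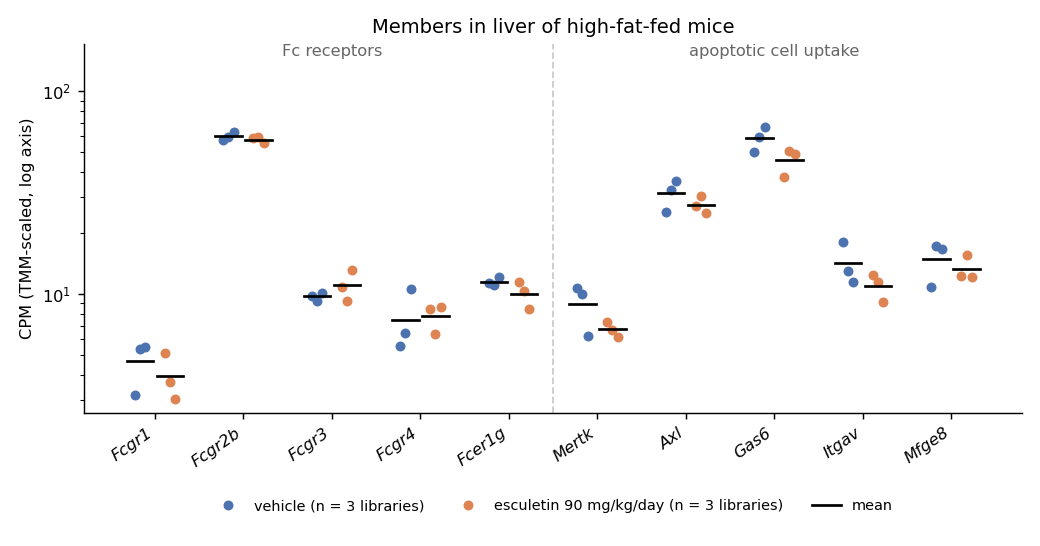
CPM of the 10 genes on a log axis in the 6 liver libraries, with points for libraries and black bars for group means. The groups overlap in every gene, and Gas6 comes closest to separating.

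Gas6 had 50.4, 59.7 and 66.7 CPM in vehicle libraries 1 to 3 and 38.0, 50.6 and 49.0 CPM in the esculetin libraries. Only the lowest vehicle library entered the treated range. The log2 fold change of Gas6 was -0.36 (SE 0.15), with an unadjusted p of 0.0299 and an adjusted p of 0.538 in edgeR. All 5 uptake genes had negative log2 fold changes in the liver, from -0.42 in Mertk to -0.17 in Mfge8, with a median of -0.36 against -0.02 over all tested genes. None of these passed the test.

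Mertk had 10.7, 9.97 and 6.23 CPM with vehicle and 7.30, 6.69 and 6.15 CPM with esculetin (log2 fold change -0.42, edgeR adjusted p = 0.636). Vehicle library 3 lay within the treated range. Itgav had 18.2, 13.0 and 11.4 CPM with vehicle and 12.4, 11.4 and 9.19 CPM with esculetin (log2 fold change -0.36, edgeR adjusted p = 0.649). Axl was at 31.5 ± 5.57 CPM with vehicle and 27.5 ± 2.63 with esculetin, and Mfge8 at 14.9 ± 3.55 and 13.4 ± 1.93 (SD, n = 3), each with overlap.

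The Fc receptor genes scattered around no change in the liver, with log2 fold changes from -0.24 in Fcgr1 to 0.19 in Fcgr3 and a median of -0.06. Fcgr2b was steady at 57.6, 59.9 and 63.1 CPM with vehicle and 58.6, 59.7 and 55.4 CPM with esculetin. Fcgr4, which rose most in the cells, had 5.53, 6.41 and 10.5 CPM with vehicle and 8.45, 6.36 and 8.67 CPM with esculetin. Vehicle library 3 was the highest of all 6, and its log2 fold change of 0.06 (edgeR adjusted p = 0.962) turned on single libraries. It was -0.10 without vehicle replicate 1, -0.04 without vehicle replicate 2, -0.0049 without esculetin replicate 1 and -0.02 without esculetin replicate 3. Fcer1g was at 11.5 ± 0.521 CPM with vehicle and 10.1 ± 1.53 with esculetin (SD, n = 3).

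Per length, the liver placed the members in another order than the cells. With vehicle, Gas6 at 36.5 ± 2.37 TPM, Fcgr2b at 35.2 ± 1.12 and Fcer1g at 34.0 ± 1.74 (SD, n = 3) led and overlapped as neighbours, and Fcgr4 followed at 19.7 ± 5.55. Axl at 11.6 ± 1.25, Fcgr3 at 10.8 ± 0.821 and Mfge8 at 10.7 ± 2.05 TPM overlapped, as did Mertk at 6.49 ± 2.14, Fcgr1 at 4.54 ± 1.02 and Itgav at 3.99 ± 1.30 TPM. Itgav, which ranked high in the cells, was thus last in the liver, and Fcgr2b, which ranked low in the cells, shared the top.

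**Figure D4:**
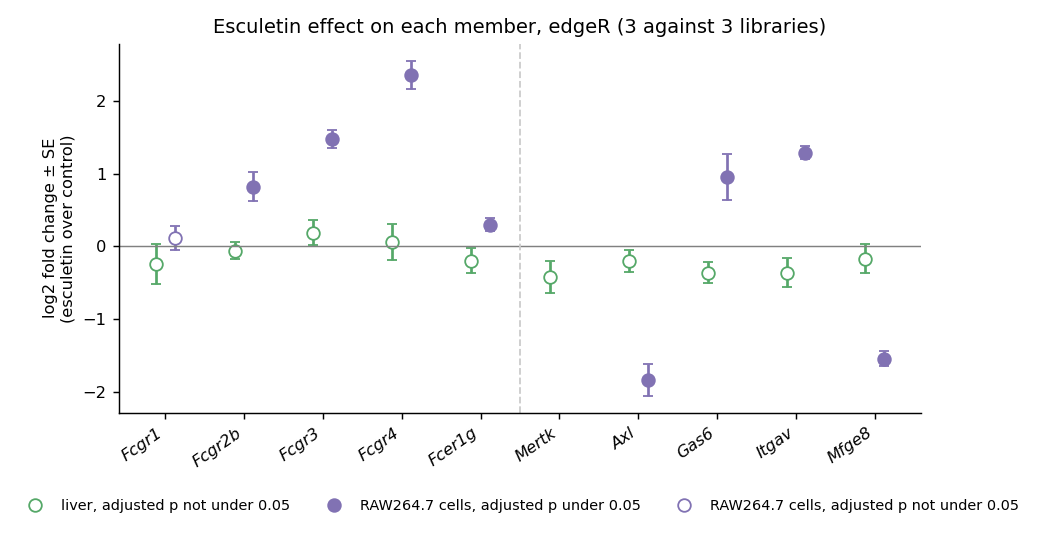
Log2 fold changes of esculetin over control with SE from edgeR, for 10 genes in the liver and 9 in RAW264.7 cells (3 against 3 libraries each, Mertk not tested in the cells). Filled points have an adjusted p under 0.05, and all filled points are cell values.

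Whether esculetin acted differently on a member in RAW264.7 cells than in liver was tested in a joint model of the 12 libraries, in which 27.1% of 15709 tested genes were called, 13.4% with a higher and 13.7% with a lower effect in the cells. Of the 10 members, 8 were called, 6 higher and 2 lower. The 6 include Mertk, which was below the filter in the cells and entered through the liver libraries. The effect in the cells exceeded that in the liver by 2.25 on the log2 scale in Fcgr4 (SE 0.34, edgeR adjusted p = 0.00016), by 1.61 in Itgav (adjusted p = 6.54e-05), by 1.27 in Gas6 (adjusted p = 0.00544), by 1.25 in Fcgr3 (adjusted p = 0.000434) and by 0.84 in Fcgr2b (adjusted p = 0.00449). The difference was -1.68 in Axl (adjusted p = 0.000101) and -1.42 in Mfge8 (adjusted p = 0.000252). Mertk was also called (adjusted p = 0.0112), but that value rests on solvent counts of 3 or fewer, so its size depends on the fit and is not given, and the call was lost without esculetin replicate 1 of the cells (adjusted p = 0.0576). Fcgr1 (adjusted p = 0.545) and Fcer1g (adjusted p = 0.0586) were not called. Fcer1g was called without liver vehicle replicate 1 (adjusted p = 0.0420) or without liver esculetin replicate 1 (adjusted p = 0.0227). The 2 systems differed in tissue, whole liver from mice against a single macrophage line in culture. Esculetin dose, exposure, diet and oxLDL differed as well, and none of these factors can be told apart in this difference.

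The other genes of both routes were read from lists of 126 symbols, of which 125 matched. In the cells 95 were tested and 70 were called, 49 higher and 21 lower, which is 73.7% against 57.7% of all tested genes. Their median log2 fold change was 0.37, against -0.01 over all tested genes. In the liver 99 were tested and 1 was called, Pltp, a phospholipid transfer protein, which fell from 71.7 ± 0.839 to 32.6 ± 7.20 CPM (SD, n = 3; log2 fold change -1.14, SE 0.15, edgeR adjusted p = 0.0225). Of all tested genes 0.0859% were called in the liver. The liver count of pathway genes fell to 0 without vehicle replicate 2, without esculetin replicate 1, without esculetin replicate 3 and when scaled by library size only. At an unadjusted p under 0.05, 12 of the 99 passed in the liver, where 8.37% of all tested genes did so.

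**Figure D5:**
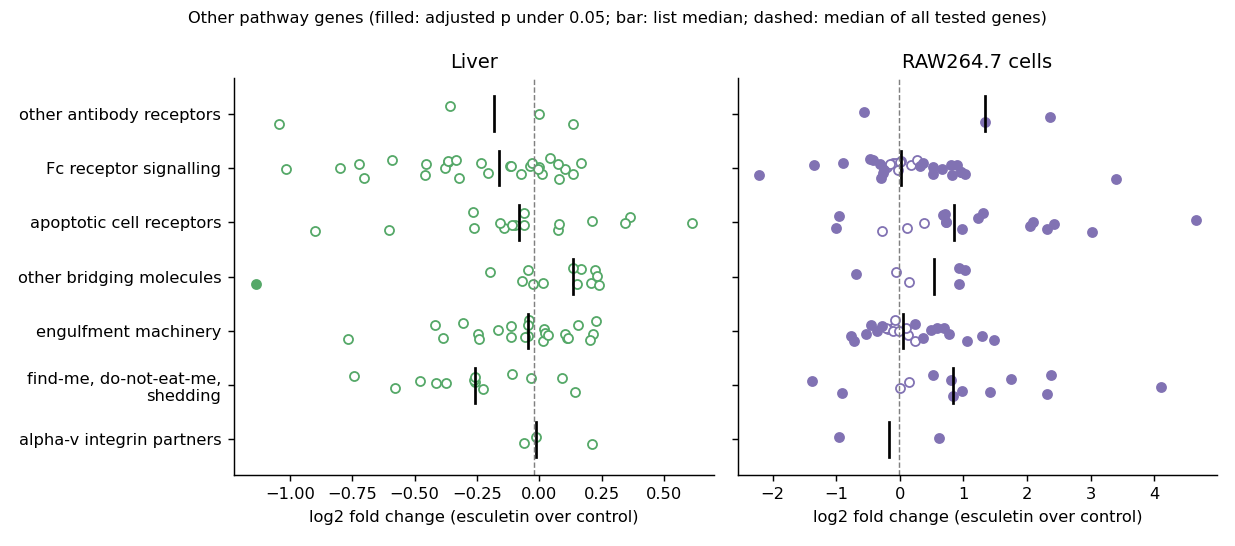
Log2 fold changes of the other pathway genes by list in the liver (left) and RAW264.7 cells (right), with filled points for adjusted p under 0.05, black bars for list medians and a dashed line for the median of all tested genes. A single liver gene, Pltp, is filled, and the receptor and find-me lists lie mostly right of the dashed line in the cells.

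Downstream of the Fc receptors, changes in the cells went both ways, with 12 of 30 signalling genes higher, 9 lower and a median log2 fold change of 0.01. That is 70.0% called, against 57.7% of all tested genes. Pik3cd, the leukocyte phosphatidylinositol 3-kinase subunit, fell by 1.34 on the log2 scale (SE 0.08, edgeR adjusted p = 3.18e-07). The adaptor Blnk fell by 2.21 (SE 0.17, adjusted p = 1.71e-06) and Ptpn6, a phosphatase recruited by inhibitory receptors, fell by 0.89 (SE 0.08, adjusted p = 5.35e-06). Vav3, a guanine nucleotide exchange factor, rose by 0.97 (SE 0.10, adjusted p = 1.13e-05). Chosen after their values were seen, the kinases Syk and Lyn, which start the signal, rose by 0.82 (adjusted p = 9.39e-05) and 0.90 (adjusted p = 1.18e-05), whereas Inpp5d, the phosphatase recruited by Fcgr2b, had a log2 fold change of -0.0034 and was not called (adjusted p = 0.973).

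Among other antibody receptors, only 3 of 12 matched genes were tested in the cells and all 3 were called, where 57.7% of all tested genes were. Trim21, a cytosolic antibody receptor, rose by 2.37 on the log2 scale (SE 0.28, edgeR adjusted p = 3.47e-05). Fcrl1, an Fc receptor-like gene, rose by 1.33 (SE 0.24, adjusted p = 0.000584). Fcgrt, the neonatal Fc receptor, fell by 0.56 (SE 0.09, adjusted p = 0.000311).

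Of 18 other apoptotic cell receptors tested in the cells, 13 were higher and 2 lower, with a median log2 fold change of 0.85. In this list 83.3% were called, against 57.7% of all tested genes, of which 28.7% were called higher and 29.0% lower. Cd14, a lipopolysaccharide co-receptor that also tethers dying cells, rose from 117 ± 7.60 to 953 ± 219 CPM (SD, n = 3; log2 fold change 3.02, SE 0.15, edgeR adjusted p = 1.14e-07). Cd300a, an inhibitory receptor for phosphatidylserine, rose by 1.30 on the log2 scale (SE 0.10, adjusted p = 2.08e-06). The scavenger receptor Scarb1 fell by 1.01 (SE 0.08, adjusted p = 1.97e-06). Tyro3, the relative of Axl and Mertk, was chosen after its values were seen. It had 4, 5 and 10 counts with solvent and 25, 21 and 30 counts with esculetin. The 13 higher genes include some, such as Tyro3 and Cd93, whose solvent libraries alone could not pass the filter on low counts. The point farthest to the right in this list is Cd93, which had 3 counts or fewer in every solvent library, so that its position depends on the fit.

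The 2 integrin partners of Itgav that were tested in the cells moved in opposite directions. Itgb5, whose product pairs with alpha-v to bind Mfge8, fell from 99.5 ± 6.90 to 51.2 ± 3.86 CPM (SD, n = 3; log2 fold change -0.96, SE 0.09, edgeR adjusted p = 7.92e-06). Itgb1 rose by 0.61 on the log2 scale (SE 0.09, adjusted p = 0.000216). Of the other 3 partners, Itgb3 was below the filter on low counts. It had 1, 0 and 4 counts with solvent and 6, 7 and 17 counts with esculetin. Itgb6 and Itgb8 were at 0 in all 6 cell libraries, which allows up to 3 counts per library.

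Among bridging molecules beside Gas6 and Mfge8, 6 were tested in the cells, 3 were higher and 1 lower, with a median log2 fold change of 0.53. The share called was 66.7%, against 57.7% of all tested genes. Anxa5, which binds phosphatidylserine, rose by 1.02 on the log2 scale (SE 0.13, edgeR adjusted p = 6.56e-05). Edil3, a relative of Mfge8 that also bridges to alpha-v integrins, rose by 0.93 (SE 0.12, adjusted p = 6.41e-05), and the galectin Lgals3 by 0.92 (SE 0.14, adjusted p = 0.000219). Pltp fell by 0.70 (SE 0.09, adjusted p = 8.65e-05). The complement genes C1qa, C1qb and C1qc were at 0 in every cell library. Pros1, which encodes protein S, another ligand of Mertk, was not called (log2 fold change -0.05, adjusted p = 0.837).

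Of 24 engulfment and corpse processing genes tested in the cells, 62.5% were called against 57.7% of all tested genes, 9 higher and 6 lower. Their median log2 fold change was 0.05. The split was 7 higher and 8 lower with library size scaling only and also without esculetin replicate 3, so its direction is not settled. The adaptor Bcar1 rose by 1.48 (SE 0.11, edgeR adjusted p = 1.58e-06), the glucose transporter Slc2a1 by 1.29 (SE 0.12, adjusted p = 4.38e-06) and the Rac exchange factor Dock2 by 1.05 (SE 0.11, adjusted p = 1.18e-05). Rubcn, which acts in LC3-associated phagocytosis, fell by 0.77 (SE 0.09, adjusted p = 2.06e-05). Of 13 genes of find-me signals, do-not-eat-me signals and receptor shedding, 9 were higher and 2 lower, with 84.6% called. The inhibitory receptor Lilrb4a rose from 47.4 ± 6.89 to 819 ± 76.5 CPM (SD, n = 3; log2 fold change 4.11, SE 0.13, edgeR adjusted p = 7.04e-09). In the same list Socs3, an inhibitor of cytokine signalling, rose by 2.37 (adjusted p = 1.07e-06), the nucleotide receptor P2ry2 by 2.31 (adjusted p = 6.59e-07) and the fractalkine receptor Cx3cr1 by 1.75 (adjusted p = 8.74e-08). Adam17, a protease that sheds Axl and Mertk, rose by 0.98 (adjusted p = 3.72e-06) and was chosen after its value was seen. Adam10, another protease of this list, was not called (log2 fold change 0.14, edgeR adjusted p = 0.228).

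Fcgr2b, Fcgr4, Fcgr3 and Fcer1g lie in this order within 276 kb of chromosome 1 (chr1:170786186-171062219), a stretch of 21 annotated genes of which 11 are protein-coding. The neighbours were read as a description. Among the protein-coding neighbours tested in the cells, Sdhc had a log2 fold change of -0.65 (edgeR adjusted p = 9.86e-05), Tomm40l of -0.76 (adjusted p = 0.00687) and Apoa2 of -0.73 (adjusted p = 0.141). The genes between Fcgr3 and Fcer1g that could be tested therefore had values opposite in sign to the Fc receptor genes on either side.

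Fcgr2b and Fcgr3 are close paralogs, and their reads could in part be exchanged by counting. Their coding sequences were 85.9% identical over 781 aligned bases, against 60.5% to 66.2% for the other pairs of Fcgr genes and 63.8% for Mertk and Axl. The longest identical run had 129 bases and is shown because it is shorter than the 150-base windows searched here. It starts at base 278 of the Fcgr2b coding sequence on GRCm39.
Fcgr2b and Fcgr3 shared run: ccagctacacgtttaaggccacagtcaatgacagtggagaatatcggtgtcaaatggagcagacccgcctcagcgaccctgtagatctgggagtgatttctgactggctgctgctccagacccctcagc

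No 150-base window of Fcgr3, Fcgr4, Fcgr1, Fcer1g, Mertk or Axl occurred in the transcripts of another gene. The share of windows found elsewhere was 2.60% in Fcgr2b, 3.71% in Itgav, 2.23% in Mfge8 and 0.0859% in Gas6, none of it between members. Exons of 5 members overlapped genes on the opposite strand, by 8.82% of the exonic bases in Mfge8, 6.06% in Fcgr2b, 5.14% in Itgav, 3.02% in Mertk and 2.80% in Gas6. The overlapping genes of Mfge8 and Mertk had no row in the tables. Strandedness was not given in the sources used here, so reads in these stretches cannot be assigned to a strand.

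The genes whose levels moved most like Fcgr4 over the 6 cell libraries were Tmed1, Slx4 and Gm46620, with Pearson correlations of log2 CPM of 0.9996, 0.9994 and 0.9994. Those most like Axl were Ybx3, Adap1 and Phgdh, with correlations of 0.9997, 0.9995 and 0.9994. The search covered 8832 genes at 10 CPM or more on average, and the 6 points form 2 treatment groups of 3, so the values mainly describe the group difference. The log2 fold change was 0.74 for Tmed1, 0.80 for Slx4 and 1.002 for Gm46620, and -1.20 for Ybx3, -0.84 for Adap1 and -1.82 for Phgdh.

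Markers of cell types also moved in the cells. Of the 10 macrophage markers, 8 were called higher, where 28.7% of all tested genes were. The summed level of the 10 was 3601 to 3784 CPM with solvent and 6632 to 9877 CPM with esculetin. The summed B cell list, nearly all of it Ighm, fell from between 171 and 184 CPM to between 30.8 and 57.7 CPM. The Kupffer cell list rose from between 21.7 and 24.4 to between 142 and 182 CPM, nearly all of it the iron exporter Slc40a1. The cholangiocyte list went from between 797 and 918 to between 4793 and 9730 CPM, with Krt19 and Sox9 at 0 and Krt7 and Epcam at 3 counts or fewer, so it stood for Spp1. The monocyte, neutrophil, dendritic cell, stellate cell, T or NK cell and endothelial lists each summed to at most 18.1 CPM in any cell library. Plac8, Retnlg, Ly6g, Cd209a, Lrat, Hgf, Colec11, Cd3e, Trac, Klrb1c and Ncr1 were among the markers at 0. The part of these shifts in the member values was not tested.

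In the liver no marker of any list was called. The macrophage list summed to 274 to 304 CPM with vehicle and 265 to 289 CPM with esculetin, and the Kupffer cell list to 380 to 415 and 338 to 377 CPM, so that the Kupffer cell sums were lower in every treated library. The endothelial list summed to 274 to 316 and 292 to 305 CPM, and the stellate cell or fibroblast list to 261 to 323 and 243 to 268 CPM. The B cell list summed to 13.9 to 16.8 CPM with vehicle and 7.57 to 11.6 CPM with esculetin, also lower in every treated library. Of single tested genes in the liver, 14.5% had groups apart. The cholangiocyte list was at 29.6 to 37.2 CPM, the monocyte list at 9.83 to 16.1, the dendritic cell list at 6.17 to 8.11, the neutrophil list at 2.02 to 3.32 and the T or NK cell list at 1.97 to 3.90 CPM over all 6 libraries, with the neutrophil marker Ly6g at 0. The part of these sums in the liver values of the members was not tested.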

How the data were processed

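The values deposited by the authors were raw read counts per gene, 1 table for 6 liver libraries and 1 for 6 RAW264.7 libraries. Per the labels and the study, libraries were made with the NEBNext Ultra RNA kit, and paired-end reads were aligned with HISAT2 2.2.1 and counted with featureCounts. The study names GRCm39, and the submitters' processing notes name GRCm39 and mm10. RNA selection, strandedness, treatment of multi-mapping reads and annotation release were not given in the sources used here. No column was unused, and all values were whole. Symbols, lengths and coordinates came from GENCODE vM39 on GRCm39, in which 608 of 55357 identifiers had no match. Unmatched identifiers took up to 0.00984% of a liver library and 0.0330% of a cell library.

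The liver and the cells were modelled separately by quasi-likelihood in edgeR 4.0.16 (R 4.3.3), after filterByExpr and with TMM factors and a treatment term, on 12813 genes in the liver and 13277 in the cells. P-values were two-sided and adjusted by the Benjamini-Hochberg method over all tested genes, and 0.05 was the threshold. The difference of effects was fitted on all 12 libraries in 4 groups. The alternatives were RLE, upper quartile and library size scaling, DESeq2 1.42.0, limma-voom from limma 3.58.1, no filter on low counts, a replicate block and leaving out each library. They also included the study's rule of an unadjusted p under 0.05 with a fold change over 1.5, applied to limma-voom fits. The fitting was tested on simulated data.

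Errors are SD over 3 libraries, or SE of the fitted log2 fold change. TPM used the length of all merged exons of a gene. The exact interval of the Mertk ratio is at the 95% level and covers counting error only, and 3 counts was taken as the limit that a count of 0 allows. Promoters came from a RefSeq table of GRCm38.p6 and were placed on GRCm39 by exact match. Coding sequences were built from the annotation and the genome. Python 3.11.15 was used with matplotlib 3.10.9 for figures and with numpy 2.4.6 and pandas 2.3.3 for tables.

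The named genes were all 10 members, up to 4 genes per pathway list with the smallest p-values among those called in the cells, any pathway gene called in the liver, cell type markers as list sums with those at 0, and the 3 genes with a mean of at least 10 CPM most correlated with the members with the largest called rise and fall. Other names are marked where they appear. The members and lists were chosen with earlier results of these data known. The value of a marker gene of the lists is not reported here.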

Additional observations from a re-analysis of the deposited data

Results flagged for a closer look

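The esculetin effect differed between the cells and the liver, by the test of the difference itself in edgeR, in 7 members with countable levels in every group. The log2 effect in the cells minus that in the liver was 2.25 in Fcgr4, 1.25 in Fcgr3 and 0.84 in Fcgr2b. It was 1.61 in Itgav and 1.27 in Gas6, whose log2 fold changes were 1.29 and 0.95 in the cells and -0.36 and -0.36 in the liver. It was -1.68 in Axl and -1.42 in Mfge8, which had negative values in both systems. Groups of 3 libraries are too small for a test of single outlying libraries.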

How the results depend on the processing

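No member was called in the liver under any of the 13 alternatives to the liver fit. In the cells the calls of 7 members (Fcgr2b, Fcgr3, Fcgr4, Fcer1g, Axl, Itgav and Mfge8) held under all 13 alternatives with a test at an adjusted p, and that of Gas6 held under 10, with adjusted p from 0.0131 to 0.0716. The count of called members ran from 7 to 8 when single libraries were left out. The study's rule, applied to limma-voom fits beside these 13, passed 0 members in the liver and 7 in the cells (5 higher, 2 lower), and Fcer1g, at 1.23-fold, is under its fold threshold of 1.5. Over all tested genes the same rule passed 499 of 12813 in the liver and many more in the cells, as given below. Of the differences between cells and liver, those of Fcgr2b, Fcgr3, Fcgr4, Axl, Gas6, Itgav and Mfge8 held under all 19 alternatives, that of Mertk under 18, and that of Fcer1g was called under 5 (upper quartile scaling 0.49, library size only 0.49, DESeq2 0.47, and 2 left-out libraries, with log2 differences of 0.52 and 0.62). The sign changed only in values that were not called. With single libraries left out, the log2 fold change of Fcgr4 in the liver ran from -0.10 to 0.37, below 0 without vehicle replicate 1 (-0.10), vehicle replicate 2 (-0.04), esculetin replicate 1 (-0.0049) or esculetin replicate 3 (-0.02), and that of Fcgr1 in the cells from -0.083, without esculetin replicate 2, to 0.26.

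Counts over all genes moved more. The liver had 11 called genes, and 0 with library size only, 339 with no filter, 98 in DESeq2, 499 by the study's rule on limma-voom fits and 0 to 31 with single libraries left out. The liver pathway genes had 1 call, 0 with library size only and 0 to 1 with single libraries left out. The cells had 7667 called genes of 13277 tested and 5041 by the study's rule, so passing that rule was common in the cells. The study itself reported fewer such genes in these cells, so its count was not reproduced here. The cause of these moves was not tested.

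Replicate numbers were shared by the groups, but nothing states that they pair samples. The correlations of same-numbered deviations were 0.14, -0.00529 and 0.103 in the liver and 0.165, -0.0298 and 0.0796 in the cells, and not every library correlated best with its own number. With a replicate block the liver had 123 called genes, no liver member was called and the 8 member calls in the cells held.

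Mertk in the cells, and to a lesser degree Gas6 and Axl, were limited by depth, with at most 12 counts of Mertk in a library. With 3 libraries a group, an interval around no change in the liver remained wide, as SE values of 0.11 in Fcgr2b to 0.28 in Fcgr1 on the log2 scale show.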
